A study of Mus musculus with 2 samples.

Results

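The lysosomal hydrolases and membrane proteins described here are 38 named genes of the 32285 in the count matrices. They are a list of names, with no threshold on values: acid proteases, lipid- and sugar-cleaving enzymes with their cofactors, proteins of the lysosomal membrane, subunits of its proton pump, and the regulator Tfeb. All 38 had a row in both matrices. Their unique molecular identifiers (UMIs, 1 per captured RNA molecule) were summed in each marker-defined cell class of each library. RPE-like cells, those of the retinal pigment epithelium, were then set against monocyte-, fibroblast- and lymphocyte-like cells.

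The tissue was RPE and choroid of mice aged 10 weeks, and single cells were sequenced in 2 droplet libraries, each pooled from 1 male and 1 female. Mice of the Tsc1 flox library carried the conditional allele Tsc1tm1Djk/J and no Cre. Mice of the Tsc1 RPE KO library carried that allele and the Best-Cre transgene, which the labels call specific to the RPE. The floxed allele is therefore shared by both groups, a group with Cre alone is not part of the comparison, and the labels do not give the share of RPE cells in which Cre acted. The neural retina was removed, the eye cups were digested with collagenase, dispase and trypsin, and live cells were sorted, so the cells are those that survived this treatment.

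Lysosomes are acidified by a proton pump, the vacuolar ATPase, and degrade protein, lipid and sugar chains with hydrolases that work at low pH. The RPE takes up the shed outer segment tips of photoreceptors every day and degrades them in phagolysosomes, a task for which cathepsin D is known to be a main protease. The kinase mTORC1, which the product of Tsc1 helps to restrain, sits on the lysosome and phosphorylates TFEB, a transcription factor that binds an E-box-like motif in the promoters of many lysosomal genes.

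Promoter sequences are shown first, because the motif that TFEB is known to bind is defined by its letters and a minority of the members carry it. They are RefSeq sequences of the build GRCm38.p6, read 5′ to 3′ on the gene's strand. TCACGTGA, in capitals, was found near a RefSeq start of 5 members, here with 11 bases on either side. Among the cell classes compared below, Ctsd and Atp6v0d1 of these members were highest in RPE-like cells in both libraries and Ctsa in classical monocyte-like cells. For Gla and Mcoln1 the highest class differed between the libraries. The other members highest in RPE-like cells, Cd63, Lgmn, Atp6ap1 and Atp6ap2, did not hold TCACGTGA in the window searched.
Ctsa, chr2:164833749-164833778, plus strand: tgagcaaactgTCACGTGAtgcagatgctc
Ctsd, chr7:142387908-142387937, minus strand: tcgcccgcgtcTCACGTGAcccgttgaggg
Gla, chrX:134601215-134601244, minus strand: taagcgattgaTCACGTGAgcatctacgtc
Mcoln1, chr8:3500462-3500491, plus strand: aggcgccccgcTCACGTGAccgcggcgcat
Atp6v0d1, chr8:105566050-105566079, minus strand: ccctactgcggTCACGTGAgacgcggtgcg
The first base of the match lay 13 bases before the start in Ctsa, 99 in Ctsd, 228 in Gla, 46 in Mcoln1 and 4 in Atp6v0d1. GENCODE M21 places the match of Ctsa, Ctsd and Mcoln1 inside an exon of at least 1 of the gene's own transcripts, since it also lists starts further upstream. The windows of Ctsa and Gla held 2 matches each, of which the first is shown.

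For contrast, the 250 bases before the start are given for Psap, which among measured members differed most between the libraries in RPE-like cells, and for Ctss, which was abundant in monocyte-like cells and nearly absent from RPE-like cells.
Psap, chr10:60277378-60277627, plus strand: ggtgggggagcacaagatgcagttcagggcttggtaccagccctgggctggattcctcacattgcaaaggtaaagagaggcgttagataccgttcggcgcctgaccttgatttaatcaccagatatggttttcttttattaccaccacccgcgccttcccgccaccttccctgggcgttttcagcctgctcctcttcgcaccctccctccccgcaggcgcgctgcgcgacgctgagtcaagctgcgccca
Ctss, chr3:95526536-95526785, plus strand: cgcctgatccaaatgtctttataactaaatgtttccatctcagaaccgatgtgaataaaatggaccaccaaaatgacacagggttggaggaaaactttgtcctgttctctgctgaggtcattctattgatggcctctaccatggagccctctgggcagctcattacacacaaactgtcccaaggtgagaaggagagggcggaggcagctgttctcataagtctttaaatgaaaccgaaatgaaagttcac
Neither window held CACGTG. Each motif reads the same on both strands, and CACGTG lies within TCACGTGA. Of the 38 members, 33 had a promoter in the table; Ctsb, Ctsh, Npc1, Asah1 and Atp6v1h did not. CACGTG was in 10 of the 33 (30.3%), namely Ctsa, Ctsd, Ctsl, Lamp1, Gla, Glb1, Gaa, Lgmn, Mcoln1 and Atp6v0d1, and in 8.09% of all 27025 genes in the table. TCACGTGA was in 5 of the 33 (15.2%), namely Ctsa, Ctsd, Gla, Mcoln1 and Atp6v0d1, and in 1.12% of all genes, while its longer form with G before and C after was in 0 members and in 0.37% of all genes. These searches covered 250 bases before and 50 after the start, and a match in letters is not a measured binding site.

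Tsc1 flox gave 12 RPE-like cells with 32094 UMIs and Tsc1 RPE KO gave 44 with 105341 UMIs. Paired values are given with Tsc1 flox first. Their cluster was led by Ttr, Rgr, Rpe65 and Rdh5 and passed 11 of 12 RPE markers, and the member genes took no part in the clustering or the naming. Markers of leukocytes, 93 genes in all, came to 249 and 218 CPM (UMIs of a gene scaled to 1000000 UMIs of the class) in these cells, against 13557 and 14315 CPM in monocyte-like cells, and 88 and 79 of the 93 had no UMI in RPE-like cells. Rod markers came to 312 and 408 CPM, against 97769 and 75170 CPM in rod-like cells, with 9 and 5 of 12 at 0. A further 2 barcodes of the same cluster in Tsc1 RPE KO, with 101 and 102 UMIs of leukocyte markers where no other held more than 3, were left out. The comparison classes held 192 and 555 monocyte-like, 266 and 178 fibroblast-like, and 922 and 815 lymphocyte-like cells. The monocyte-like cells of Tsc1 flox were mostly classical (104 of 192) and those of Tsc1 RPE KO mostly nonclassical (439 of 555). Both libraries together shared 2 cell barcodes.

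No difference was tested, since each genotype is 1 library. Intervals are exact 95% intervals for counting error alone; they leave out the spread over cells, mice and preparations. A member counts as measured with at least 50 UMIs over the cells compared, and as higher or lower when its level differed at least 2-fold, between cell classes in the same direction in both libraries. Where a group held 0 UMIs, 3 counts over that group were put in its place and the fold is a bound.

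Together, the 38 genes gave 1.22% of the UMIs of RPE-like cells in Tsc1 flox (1.11 to 1.35%), against 1.77% in Tsc1 RPE KO (1.70 to 1.86%). The same share was 1.26% and 1.16% in monocyte-like cells, 0.727% and 0.695% in fibroblast-like cells, 0.516% and 0.510% in endothelial-like cells, 0.269% and 0.277% in lymphocyte-like cells, and 0.184% and 0.190% in rod-like cells. Among these classes, RPE-like and monocyte-like cells thus gave the largest shares in both libraries. The intervals of RPE-like and monocyte-like cells overlapped in Tsc1 flox but not in Tsc1 RPE KO. Within the RPE-like share, Psap made up 18.8% of the member UMIs in Tsc1 flox, against 32.9% in Tsc1 RPE KO. Without Psap, the share was 0.994% and 1.19% of all UMIs. Free RNA, from barcodes with 10 to 100 UMIs, gave 0.478% and 0.601%.

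**Figure D1:**
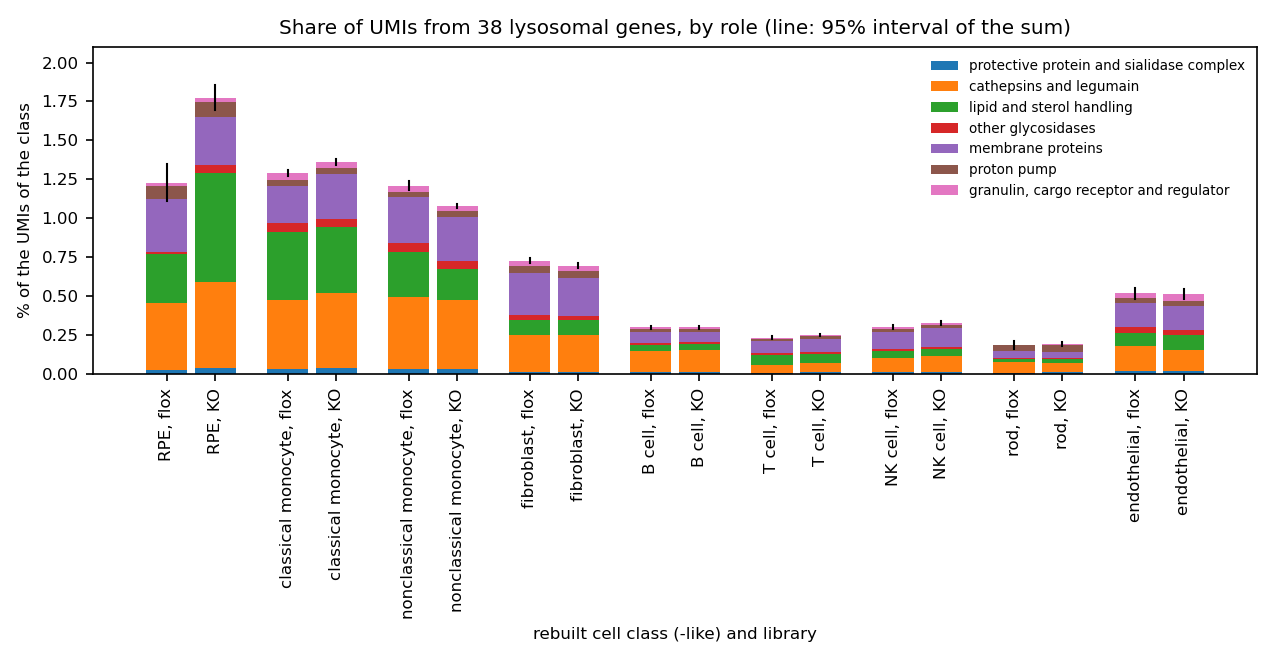
Share of UMIs from the 38 lysosomal genes (y axis, %) in 9 rebuilt cell classes of the Tsc1 flox and Tsc1 RPE KO libraries, stacked by the role of the genes; the line is the exact 95% counting interval of the sum. The bars of RPE-like cells reach 1.22% and 1.77%, those of the lymphocyte classes at most 0.324%.

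The classes differed in which lysosomal genes they held. Among 9 classes, 6 members were highest in RPE-like cells in both libraries: Ctsd, Cd63, Lgmn, Atp6v0d1, Atp6ap1 and Atp6ap2. Classical monocyte-like cells held the highest level of 9 (Ctsa, Ctsc, Ctsh, Ctss, Ctsz, Lamp1, Npc2, Asah1 and Grn), nonclassical monocyte-like cells of 4 (Ctsb, Man2b1, Laptm5 and Tfeb), fibroblast-like cells of 3 (Ctsl, Laptm4a and Sqstm1) and rod-like cells of Npc1. For the other 15 the class differed between the libraries. Left out of the 9 classes were clusters named plasmacytoid dendritic cell (17 and 16 cells) and mast cell (13 and 12). Those named pericyte or smooth muscle (9 and 5) and erythroid (10 and 2) were left out too. Whether a member was higher in any of these clusters was not examined. The counting interval of RPE-like cells lay clear of that of the next class in both libraries for Ctsd and Cd63; for Lgmn and Atp6v0d1 the intervals overlapped in both, and for Atp6ap1 and Atp6ap2 in Tsc1 flox.

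**Figure D2:**
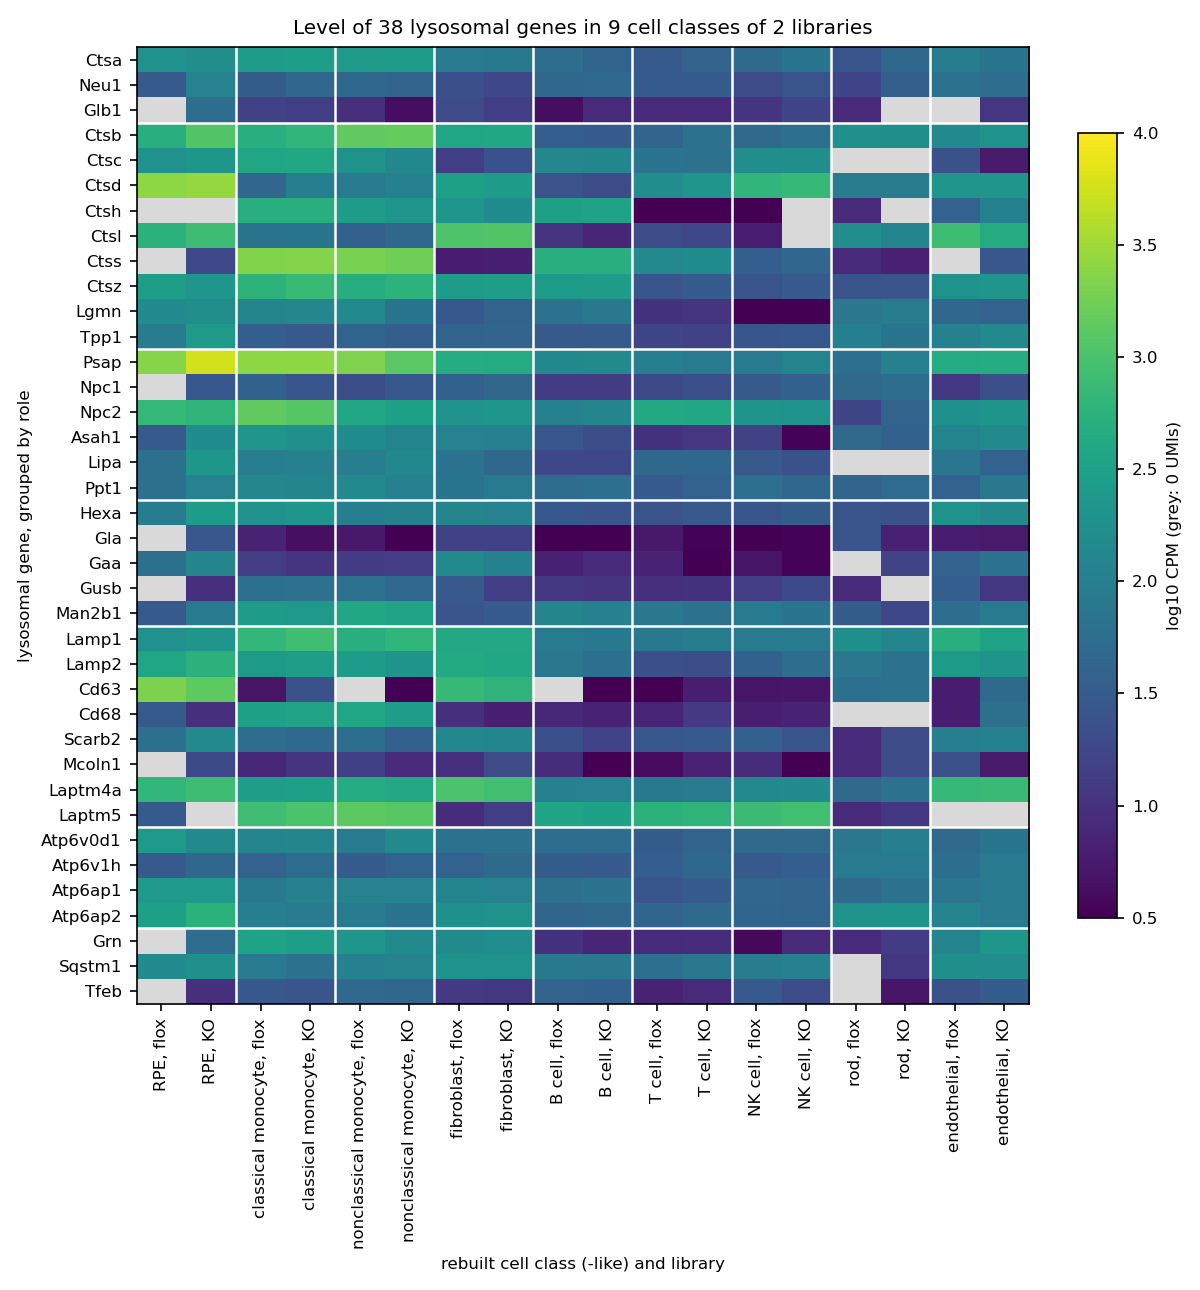
Level of each of the 38 genes (rows, grouped by role) in 9 rebuilt cell classes of each library (columns), as log10 CPM by colour, with grey for 0 UMIs. Ctsd and Cd63 are brightest in RPE-like cells, Ctss and Laptm5 in monocyte-like cells, and Ctsl and Laptm4a in fibroblast-like cells.

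Among the acid proteases, Ctsd was high in RPE-like cells, while Ctss had 0 and 2 UMIs and Ctsh 0 in both libraries. Ctsd encodes cathepsin D, an aspartic protease, on chromosome 7 (142375911 to 142388038, minus strand, mm10). It was at 2524 CPM (2004 to 3137; 81 UMIs) in RPE-like cells of Tsc1 flox and at 2781 CPM (2472 to 3119; 293 UMIs) in those of Tsc1 RPE KO. Monocyte-like cells held 58.8 and 104 CPM, fibroblast-like cells 307 and 271 CPM, and lymphocyte-like cells 198 and 220 CPM. Ctsd was therefore 43.0-fold (31.5 to 58.5) and 26.7-fold (22.9 to 31.2) higher in RPE-like than in monocyte-like cells, 8.23-fold (6.38 to 10.5) and 10.3-fold (8.56 to 12.3) higher than in fibroblast-like cells, and 12.7-fold higher than in lymphocyte-like cells in each library. All 12 RPE-like cells of Tsc1 flox and 43 of the 44 of Tsc1 RPE KO had a Ctsd UMI, against 32.8% and 41.8% of monocyte-like cells, whose median depth was 7918 and 5993 UMIs against 2582 and 2096.5 UMIs in RPE-like cells. Among lymphocyte classes Ctsd was uneven: NK cell-like cells held 631 and 705 CPM and B cell-like cells 24.8 and 19.7 CPM.

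Ctss, the cysteine protease cathepsin S of antigen-presenting cells, had the opposite distribution. It was not seen (0 UMIs) in the 12 RPE-like cells of Tsc1 flox, where 3 counts would be 93.5 CPM, and 2 UMIs in Tsc1 RPE KO (19.0 CPM, 2.30 to 68.6). Monocyte-like cells held 2113 and 1888 CPM, so the level in RPE-like cells was at least 22.6-fold lower in Tsc1 flox but 99.4-fold (27.5 to 821) lower in Tsc1 RPE KO. Free RNA held 348 and 572 CPM of Ctss, more than the RPE-like cells of the same library. Ctsh, a cathepsin with aminopeptidase activity, was not seen (0 UMIs) in RPE-like cells of either library, at least 4.49-fold and 10.7-fold below monocyte-like cells (420 and 306 CPM) and at least 2.29-fold and 5.60-fold below fibroblast-like cells (214 and 159 CPM).

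Ctsl, encoding cathepsin L, was shared by the RPE and the stroma. It was at 561 CPM (332 to 886) and 816 CPM (653 to 1008) in RPE-like cells, and fibroblast-like cells held 1083 and 1129 CPM, less than 2-fold more in each library, while monocyte-like cells held 58.8 and 55.6 CPM. RPE-like cells were 9.55-fold (5.42 to 15.9) and 14.7-fold (11.3 to 19.0) above monocyte-like cells and 39.3-fold (21.9 to 67.2) and 70.5-fold (48.7 to 103) above lymphocyte-like cells. Subtracting the free RNA profile at 10% of each class total took away all Ctsl of lymphocyte-like cells. The folds above them then became bounds, at least 795-fold and 1040-fold. Ctsb, encoding cathepsin B, was at 499 and 1111 CPM in RPE-like cells, 823 and 1241 CPM in monocyte-like cells, 377 and 397 CPM in fibroblast-like cells and 42.1 and 52.9 CPM in lymphocyte-like cells. Nonclassical monocyte-like cells held 1416 and 1503 CPM of it and classical ones 509 and 641 CPM. Ctsc, encoding dipeptidyl peptidase 1, was at 187 and 228 CPM in RPE-like cells and 13.4-fold (4.30 to 36.1) and 9.33-fold (4.90 to 18.0) higher than in fibroblast-like cells. Ctsz, a carboxypeptidase, had 280 and 209 CPM in RPE-like cells against 546 and 625 CPM in monocyte-like cells. Tpp1, encoding tripeptidyl peptidase 1, had 3 and 26 UMIs in RPE-like cells and was 2.48-fold (0.497 to 7.61) and 7.11-fold (4.47 to 10.9) above monocyte-like cells, the interval of Tsc1 flox including 1. Lgmn, encoding legumain, an asparaginyl endopeptidase, was at 156 and 171 CPM on 5 and 18 UMIs. It was 5.42-fold (1.65 to 14.0) and 4.15-fold (2.20 to 7.63) above fibroblast-like cells. In Tsc1 flox, 4 of the 5 UMIs came from 1 cell.

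Among the genes for lipid and sterol handling, Psap led in RPE-like cells and Npc2 followed. Psap encodes prosaposin, the precursor of the saposins that present sphingolipids to lysosomal hydrolases (chromosome 10, 60277627 to 60302597, plus strand, mm10). It was at 2306 CPM (1810 to 2895; 74 UMIs) and 5829 CPM (5377 to 6309; 614 UMIs) in RPE-like cells and at 2355 and 1679 CPM in monocyte-like cells. The ratio to monocyte-like cells was 0.979 (0.767 to 1.23) in Tsc1 flox but 3.47 (3.19 to 3.77) in Tsc1 RPE KO, with 1 inside the interval of Tsc1 flox only. Over 14 alternative settings the ratio in Tsc1 flox ran from 0.832 to 1.62 and stayed below 1 in 8 of them. That in Tsc1 RPE KO ran from 3.02 to 4.95. RPE-like cells were above fibroblast-like cells 4.91-fold (3.80 to 6.27) and 13.03-fold (11.4 to 14.9), and above lymphocyte-like cells 21.0-fold (16.2 to 26.8) and 53.4-fold (47.1 to 60.5), which the subtraction of free RNA moved to 38.9-fold and 167-fold. Npc2, the soluble cholesterol carrier of the lysosome, was at 685 and 589 CPM in RPE-like cells, 3.51-fold (2.16 to 5.45) and 2.73-fold (2.003 to 3.67) above fibroblast-like cells and 2.01-fold and 2.02-fold below classical monocyte-like cells. Asah1 (acid ceramidase), Lipa (acid lipase) and Ppt1 (palmitoyl-protein thioesterase 1) had 1 to 2 UMIs in Tsc1 flox, against 12 to 24 in Tsc1 RPE KO. Npc1, the membrane partner of Npc2 in cholesterol export, had 0 and 3 UMIs.

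The sugar-cleaving enzymes were thinly counted in RPE-like cells. Ctsa, which encodes the protective protein that stabilises beta-galactosidase and the sialidase, was at 187 and 171 CPM, 2.24-fold (0.801 to 5.05) and 2.08-fold (1.16 to 3.55) above fibroblast-like cells. Its partners Neu1, the sialidase, and Glb1, beta-galactosidase, had 1 and 12 UMIs and 0 and 6 UMIs; exons of Glb1 overlap those of Tmppe on the same strand, so its count is uncertain. Gaa, acid alpha-glucosidase, had 2 and 13 UMIs and was 4.65-fold (0.528 to 19.0) and 9.68-fold (4.80 to 18.2) above monocyte-like cells, with the interval of Tsc1 flox including 1. Both Gaa UMIs of Tsc1 flox came from 1 cell. Hexa, the alpha subunit of beta-hexosaminidase, had 3 and 28 UMIs and was 3.47-fold (0.705 to 10.4) and 9.03-fold (5.75 to 13.7) above lymphocyte-like cells. Man2b1, lysosomal alpha-mannosidase, had 1 and 9 UMIs and was 9.92-fold (1.77 to 393) and 3.74-fold (1.96 to 8.19) below monocyte-like cells. Gla, alpha-galactosidase A, had 0 and 3 UMIs, and Gusb, beta-glucuronidase, 0 and 1.

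Of the membrane proteins, Cd63 separated RPE-like cells from monocyte- and lymphocyte-like cells most widely. Cd63 encodes a tetraspanin of late endosomes and lysosomes, also found on melanosomes (chromosome 10, 128900989 to 128912822, plus strand, mm10). It was at 2056 CPM (1590 to 2616; 66 UMIs) and 1339 CPM (1127 to 1579; 141 UMIs) in RPE-like cells, 701 and 599 CPM in fibroblast-like cells, 3.19 and 7.87 CPM in monocyte-like cells and 1.78 and 4.53 CPM in lymphocyte-like cells. RPE-like cells were 644-fold (262 to 2049) and 170-fold (113 to 263) above monocyte-like cells, on 5 and 29 monocyte UMIs, and 2.93-fold (2.25 to 3.77) and 2.23-fold (1.84 to 2.70) above fibroblast-like cells. In Tsc1 RPE KO, 26 of those 29 UMIs came from 6 classical monocyte-like cells, and the fold ran from 135 to 1596 over the alternatives. The highest value is a bound, since subtracting the free RNA profile took away all Cd63 of monocyte-like cells. A Cd63 UMI was seen in 91.7% and 90.9% of RPE-like cells and in 2.60% and 1.62% of monocyte-like cells, which were the deeper.

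Laptm5, a lysosomal membrane protein of blood cells, showed the reverse, with 1 and 0 UMIs in RPE-like cells against 1015 and 1175 CPM in monocyte-like cells and 520 and 541 CPM in lymphocyte-like cells. Against monocyte-like cells it was 32.6-fold (5.84 to 1288) lower in Tsc1 flox, while the bound was at least 41.3-fold in Tsc1 RPE KO. Its paralogue Laptm4a was at 654 and 807 CPM in RPE-like cells, within 2-fold of fibroblast-like cells in both libraries (1009 and 872 CPM) and 6.40-fold (3.92 to 9.90) and 7.63-fold (5.97 to 9.66) above lymphocyte-like cells. Cd68, a glycoprotein of macrophage lysosomes, had 1 UMI in RPE-like cells of each library and 334 and 303 CPM in monocyte-like cells.

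The abundant lysosomal glycoproteins Lamp1 and Lamp2 did not run in parallel. Lamp1 was at 187 and 209 CPM in RPE-like cells and 596 and 699 CPM in monocyte-like cells, 3.19-fold (1.46 to 8.72) and 3.34-fold (2.20 to 5.35) lower in RPE-like cells. Lamp2, on the X chromosome (38401357 to 38456454, minus strand, mm10), was at 374 and 570 CPM in RPE-like and 259 and 231 CPM in monocyte-like cells, a ratio of 1.45 (0.741 to 2.55) and 2.47 (1.87 to 3.21). Scarb2, which carries glucocerebrosidase to the lysosome, had 2 and 15 UMIs, and Mcoln1, the lysosomal calcium channel TRPML1, 0 and 2.

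Of the 4 proton pump genes, 2 were higher in RPE-like than in monocyte-like cells (Atp6ap1 and Atp6ap2) and 2 higher than in fibroblast-like cells (Atp6v0d1 and Atp6ap1). Over all measured genes, 8.64% and 6.03% were higher in these comparisons, and counts out of 4 are not set apart from that. Atp6ap2, an accessory subunit also known as the prorenin receptor, was at 312 CPM (149 to 573; 10 UMIs) and 570 CPM (435 to 733; 60 UMIs), 3.25-fold (1.53 to 6.15) and 7.72-fold (5.74 to 10.2) above monocyte-like cells. Atp6ap1, the other accessory subunit, was at 249 and 247 CPM and 2.67-fold (1.13 to 5.41) and 2.21-fold (1.43 to 3.28) above monocyte-like cells. Atp6v0d1, a subunit of the membrane sector, was at 249 and 152 CPM and 3.92-fold (1.63 to 8.14) and 2.36-fold (1.26 to 4.22) above fibroblast-like cells, with ratios of 2.31 (0.981 to 4.66) and 1.10 (0.626 to 1.81) to monocyte-like cells. Atp6v1h, a regulatory subunit of the cytosolic sector, had 1 and 5 UMIs and ratios of 0.827 (0.0206 to 4.79) and 1.07 (0.344 to 2.56) to monocyte-like cells.

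Of the remaining members, Grn, encoding progranulin, had 0 and 6 UMIs in RPE-like cells, at least 3.16-fold and 3.33-fold (1.52 to 9.10) below monocyte-like cells. Sqstm1, the autophagy cargo receptor p62, was at 156 and 180 CPM, 2.11-fold (0.682 to 4.98) and 2.13-fold (1.26 to 3.37) above lymphocyte-like cells. Tfeb had 0 and 1 UMIs in RPE-like cells, so its level there was not resolved at this depth.

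Counted over the list, 7 of 37 measured members were higher in RPE-like than in monocyte-like cells (Ctsd, Ctsl, Tpp1, Cd63, Gaa, Atp6ap1 and Atp6ap2), where 8.64% of the 7526 measured genes were higher. Another 7 were lower (Ctsh, Ctss, Lamp1, Cd68, Man2b1, Grn and Laptm5), where 9.79% of genes were lower. All 7 lower members had reached 50 UMIs through the monocyte-like cells, with 0 to 28 UMIs in RPE-like cells, so no weight rests on their count. Of the higher members, Cd63 reached 50 UMIs only through the RPE-like cells (66 and 141 UMIs, against 5 and 29), so no weight rests on its place in the count. The median log2 ratio of the members was -0.38 in Tsc1 flox but 0.22 in Tsc1 RPE KO, beside 0.17 and -0.54 over all measured genes, with genes without a UMI taken at their bound where one could be given.

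Against fibroblast-like cells, 10 of 30 measured members were higher (Ctsa, Ctsc, Ctsd, Tpp1, Lgmn, Psap, Npc2, Cd63, Atp6v0d1 and Atp6ap1) beside 6.03% of 6701 genes, and Ctsh was lower beside 10.7%. The median log2 ratio was 0.02 and 1.09, beside -0.23 and -0.82 over all measured genes. Against lymphocyte-like cells, 19 of 37 were higher beside 9.42% of 8810 genes, with members of every role among them, and Ctss and Laptm5 were lower beside 7.12%. The lower members Ctsh, Ctss and Laptm5 reached 50 UMIs through the comparison class, so no weight rests on their counts. Cd63 had 8 and 18 UMIs in lymphocyte-like cells and reached 50 only through the RPE-like cells there, so no weight rests on it in that count. The median log2 ratio was 1.79 and 1.99, beside 0.39 and -0.36 over all measured genes. When 50 UMIs were asked of the RPE-like cells alone, a choice made after seeing the data, 4 members were higher than in monocyte-like cells, 4 than in fibroblast-like cells and 9 than in lymphocyte-like cells, and 0 were lower in any of the 3. That minimum keeps members through the RPE-like cells, where they are abundant. It favours higher over lower members, so no weight rests on these counts.

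**Figure D3:**
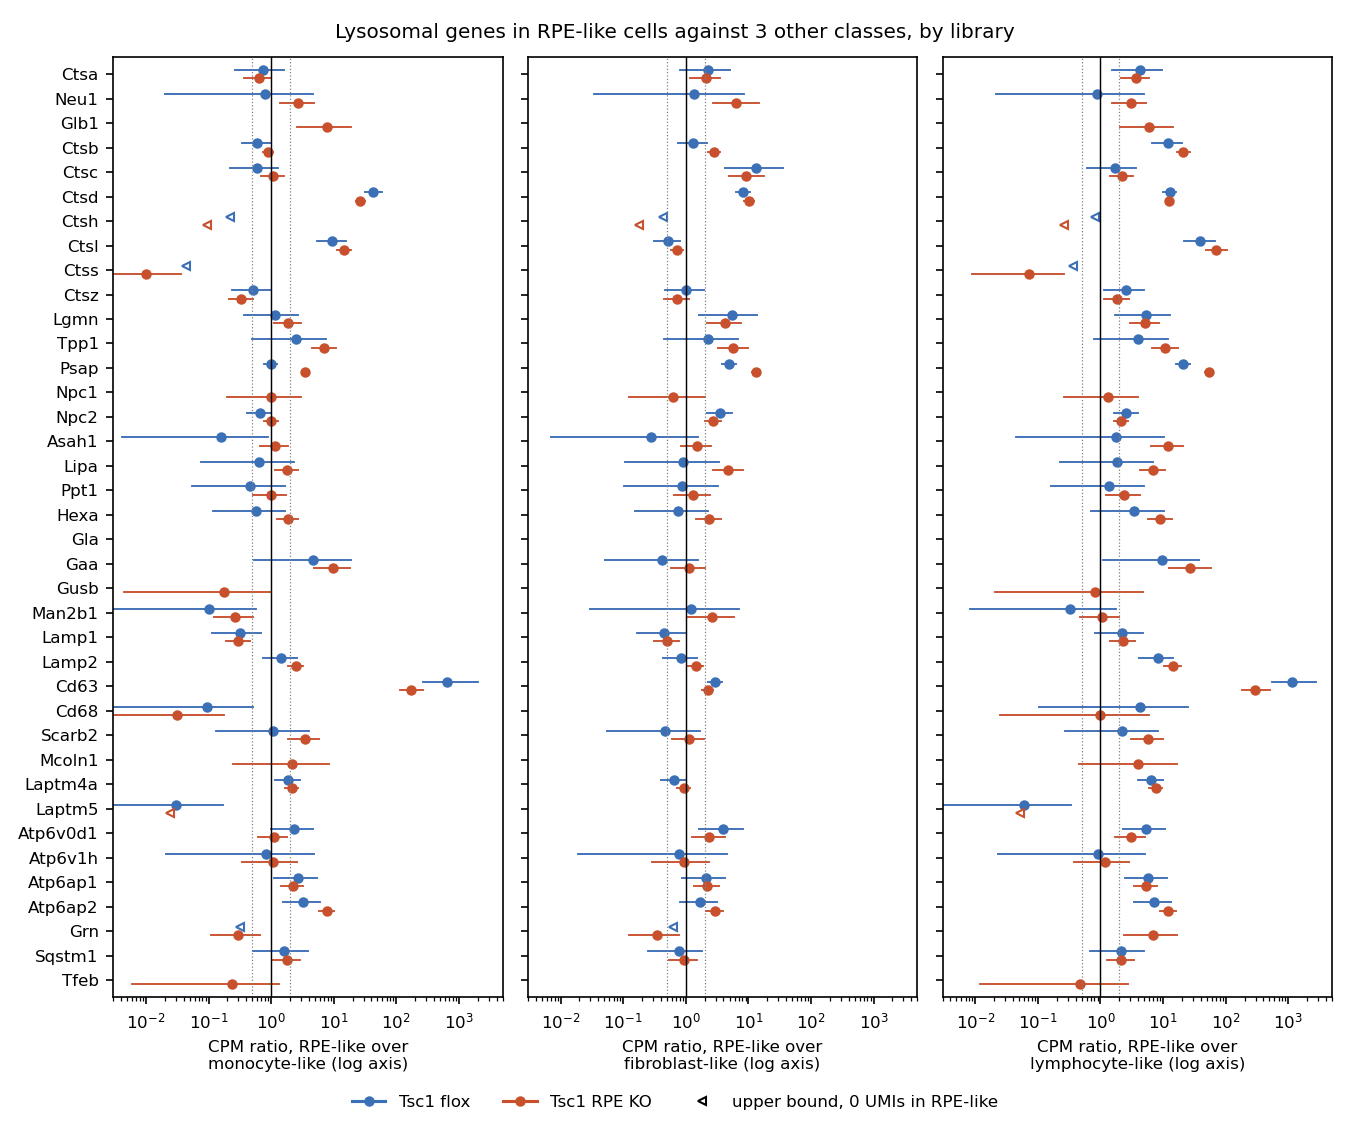
Ratio of the level in RPE-like cells to that in monocyte-, fibroblast- and lymphocyte-like cells (x axes, log scale) for each of the 38 genes in each library, with exact 95% counting intervals; dotted lines mark 2-fold and triangles are upper bounds. Ctsd, Cd63 and Ctsl lie far to the right of the monocyte and lymphocyte panels, Ctss and Laptm5 far to the left of both.

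Classical and nonclassical monocyte-like cells, whose proportions differed between the libraries, were also set against RPE-like cells one by one. Of 34 measured members, 7 were higher and 9 lower than in classical monocyte-like cells, beside 8.19% and 13.6% of 5152 genes. Of 35 measured members, 7 were higher and 7 lower than in nonclassical monocyte-like cells, beside 8.14% and 12.4% of 6277 genes. Here too, the lower members other than Npc2 reached 50 UMIs through the monocyte-like cells, and no weight rests on their counts. Cd63 reached 50 UMIs only through the RPE-like cells in both comparisons, so no weight rests on it there. Ctsd was 56.2-fold (38.7 to 82.5) and 28.4-fold (22.7 to 35.7) above the classical and 29.7-fold (20.4 to 43.7) and 26.0-fold (21.99 to 30.8) above the nonclassical cells.

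Between the libraries, RPE-like cells of Tsc1 RPE KO held more Psap and Ctsb than those of Tsc1 flox. Of the 38 members, 9 had at least 50 UMIs over the RPE-like cells of both libraries, and 2 of these were at least 2-fold higher in Tsc1 RPE KO, where 6.89% of the 334 measured genes were. No member was at least 2-fold lower, where 2.99% of genes were. The ratio of Psap was 2.53 (1.98 to 3.26) and that of Ctsb 2.23 (1.32 to 4.03). The other 7 had ratios of 0.651 (0.483 to 0.886) for Cd63, 0.859 (0.520 to 1.47) for Npc2, 1.10 (0.859 to 1.43) for Ctsd, 1.23 (0.758 to 2.09) for Laptm4a, 1.46 (0.869 to 2.57) for Ctsl, 1.52 (0.811 to 3.11) for Lamp2 and 1.83 (0.928 to 4.01) for Atp6ap2. The intervals of all of these except Cd63 included 1, and the median log2 ratio of the 9 was 0.54 beside -0.06 over all measured genes.

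The spread over cells was wide beside these differences. Psap ran from 1 to 25 UMIs per cell with a median of 4.5 in the 12 RPE-like cells of Tsc1 flox, where a single cell gave 33.8% of its UMIs, and from 0 to 101 with a median of 6.5 in the 44 of Tsc1 RPE KO. Scaled to each cell's depth, its median was 1701 CPM in Tsc1 flox against 2929 CPM in Tsc1 RPE KO, the highest cell reached 9789 and 27546 CPM, and the cells of the libraries overlapped. Ctsb ran from 0 to 4 UMIs per cell in Tsc1 flox, against 0 to 13 in Tsc1 RPE KO, with a median of 1 in each, and was seen in 8 of 12 and 39 of 44 cells. Cells are not replicates of a genotype, and these values describe the cells of 1 preparation each.

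**Figure D4:**
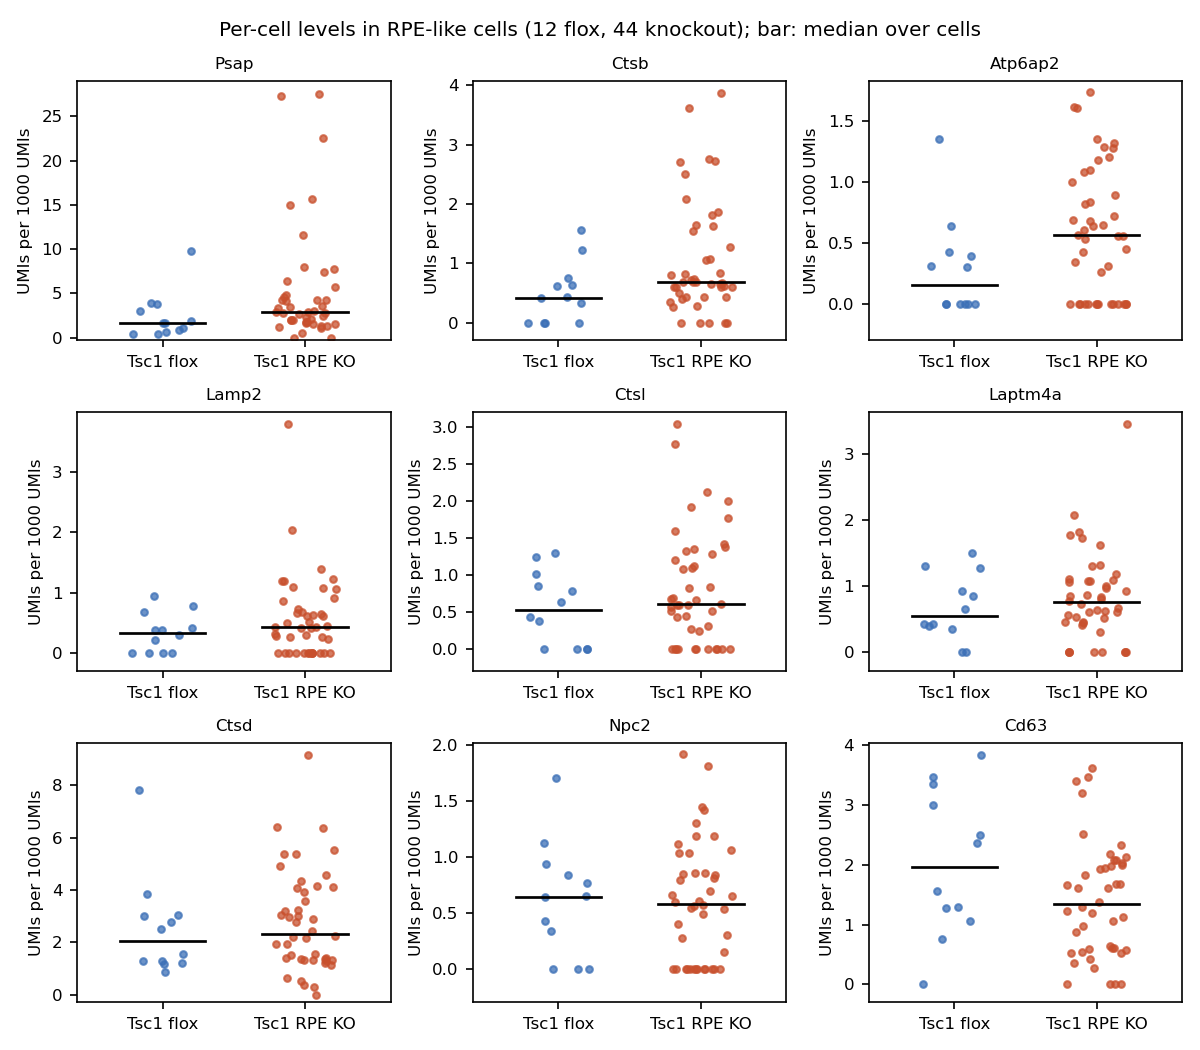
Level per RPE-like cell (y axes, UMIs of the gene per 1000 UMIs of the cell) of the 9 genes with at least 50 UMIs, with 1 point per cell and a bar at the median, for 12 Tsc1 flox and 44 Tsc1 RPE KO cells. The cells of the libraries overlap for every gene, and a few Tsc1 RPE KO cells lie far above the rest for Psap.

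RPE-like barcodes below the UMI minimum, which are other barcodes than the cells above, gave a further reading. Tsc1 flox had 30 of them with 28113 UMIs and Tsc1 RPE KO 48 with 44216 UMIs, each of at least 500 UMIs. The ratio of Tsc1 RPE KO to Tsc1 flox in them was 1.70 (1.39 to 2.09) for Psap, on 132 and 353 UMIs, and 1.70 (1.01 to 2.95) for Ctsb, on 21 and 56 UMIs. Lamp2 had 2.54 (1.01 to 7.61), Ctsd 1.40 (1.02 to 1.92) and Cd63 1.16 (0.744 to 1.83), so the lower Cd63 of the deeper cells was not seen in them. These barcodes come from the same libraries and give no replicate of a genotype. Psap was at 4695 CPM in those of Tsc1 flox and 7984 CPM in those of Tsc1 RPE KO, in each library above its level in the deeper cells. The level of Psap within a library thus differed with the depth of the barcodes taken, and the cause was not tested. With all RPE-like barcodes of at least 500 UMIs, the ratios of Psap and Ctsb were 1.89 (1.62 to 2.21) and 1.88 (1.31 to 2.76), and 0 of the members with at least 50 UMIs in them reached 2-fold.

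The ratios of Psap and Ctsb between the libraries were also taken in the 3 comparison classes. Psap had ratios of 0.713 (0.684 to 0.743) in monocyte-like, 0.953 (0.830 to 1.09) in fibroblast-like and 0.993 (0.871 to 1.13) in lymphocyte-like cells. Ctsb had 1.51 (1.42 to 1.61), 1.05 (0.907 to 1.22) and 1.26 (1.03 to 1.54) in the same order, and 1.26 (1.12 to 1.41) and 1.06 (0.982 to 1.15) within classical and nonclassical monocyte-like cells. Whether these ratios differ from those in RPE-like cells was not tested. Free RNA held 535 and 753 CPM of Psap and 260 and 481 CPM of Ctsb, and with this profile subtracted at 10% of each class total the ratios in RPE-like cells were 2.59 for Psap and 2.28 for Ctsb. The same subtraction gave 0.7005 for Psap and 1.505 for Ctsb in monocyte-like cells, 0.897 and 0.997 in fibroblast-like cells, and 0.603 and 0.294 in lymphocyte-like cells, where Ctsb thus turned from higher to lower. Free RNA held 169 and 167 CPM of Cd63, monocyte-like cells 3.19 and 7.87 CPM and lymphocyte-like cells 1.78 and 4.53 CPM. A 10% share of free RNA would bring more Cd63 than these 2 classes held. The setting is thus too high for them, and nothing is concluded from their subtracted values.

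Of the measured members, 0 of 34 in monocyte-like cells (beside 2.76% of genes higher and 1.79% lower), 0 of 28 in fibroblast-like cells (0.73% and 1.15%) and 0 of 34 in lymphocyte-like cells (0.529% and 0.322%) differed 2-fold between the libraries. Within classical monocyte-like cells Ctsd was 2.18-fold (1.53 to 3.15) higher in Tsc1 RPE KO, 1 of 33 measured members beside 1.45% of genes higher and 0.675% lower. Within nonclassical monocyte-like cells Lgmn was 2.07-fold (1.58 to 2.70) lower, 1 of 33 beside 1.02% of genes lower and 3.69% higher.

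**Figure D5:**
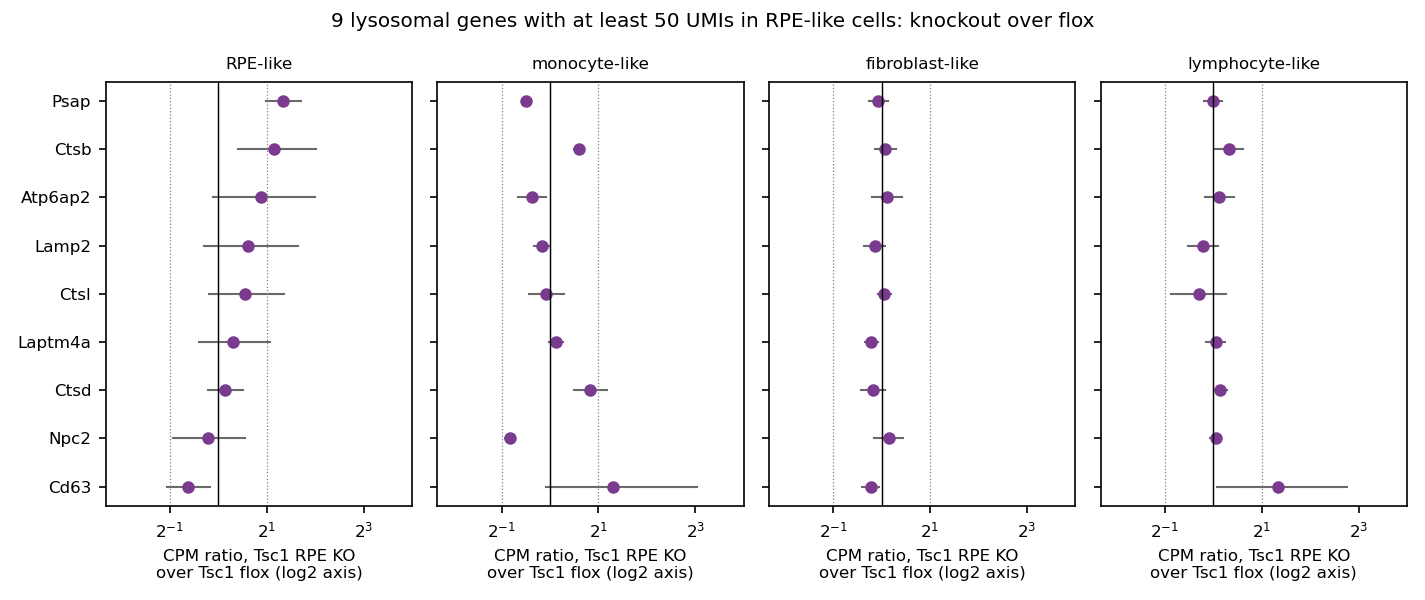
Ratio of the level in Tsc1 RPE KO to that in Tsc1 flox (x axes, log2 scale) in RPE-, monocyte-, fibroblast- and lymphocyte-like cells for the 9 genes measured in RPE-like cells, with exact 95% counting intervals and dotted lines at 2-fold. Psap and Ctsb lie past 2-fold in RPE-like cells; Cd63 in monocyte- and lymphocyte-like cells rests on fewer than 50 UMIs.

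Other genes of the pathway were counted in the same way. Of 14 further proton pump subunits, 13 were measured in each class comparison, and 4, 6 and 6 of them were higher in RPE-like than in monocyte-, fibroblast- and lymphocyte-like cells, with 0 lower, beside the 8.64%, 6.03% and 9.42% of all measured genes given above. Those with most RPE UMIs were Atp6v1e1 (841 and 1339 CPM in RPE-like cells, 257 and 298 CPM in monocyte-like cells), Atp6v0c (1371 and 1054 CPM, 400 and 421 CPM) and Atp6v1g1 (312 and 598 CPM, 233 and 251 CPM). Between the libraries 6 were measured in RPE-like cells and 0 differed 2-fold, with a median log2 ratio of -0.02; Atp6v1e1 had a ratio of 1.59 (1.05 to 2.50).

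Among further hydrolases and their cofactors, Smpd1, acid sphingomyelinase, and Aga, aspartylglucosaminidase, were higher than in monocyte-like cells, and Gm2a, the activator of ganglioside breakdown, was lower. In RPE-like cells Gm2a had 26 UMIs over both libraries and Smpd1 had 25. Gm2a had 1393 and 2787 UMIs in monocyte-like cells and reached the 50-UMI minimum through them, so no weight rests on its call. Of 15 further membrane proteins, 2 of 9 measured were higher than in monocyte-like cells (Cd164 and Tmem106b), and Gpnmb had 1 UMI in RPE-like cells of Tsc1 flox and 44 in those of Tsc1 RPE KO, a ratio of 13.4 (2.28 to 541) below the 50-UMI minimum. Of 8 enzyme sorting genes, 1 of 8 measured was higher than in monocyte-like cells (Gnptg). Over all measured genes 8.64% were higher and 9.79% lower than in monocyte-like cells, and counts this small are not set apart from these shares.

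Among 15 genes for the MiT/TFE factors, Ragulator and folliculin, 0 of 11 measured differed 2-fold in both libraries between RPE-like and monocyte-like cells. Lamtor2, Lamtor1 and Rragd had the most RPE UMIs, 18, 17 and 17 over both libraries, and Rragd had 0 in Tsc1 flox. Lamtor4 went the other way, with 7 and 4 RPE UMIs and a ratio between the libraries of 0.174 (0.0374 to 0.685). These counts lie below 50 RPE UMIs, and no direction of the list is drawn from them. Of 20 autophagy genes, 2 of 18 measured were higher than in monocyte-like cells (Map1lc3a and Gabarapl1), near the 8.64% of all measured genes, and Gabarap, the only gene of that list with 50 RPE UMIs, had a ratio between the libraries of 0.971 (0.545 to 1.82). Below that minimum, Map1lc3a had 25 and 16 RPE UMIs and a ratio of 0.195 (0.0973 to 0.380), Tax1bp1 0.448 (0.233 to 0.884) and Wipi1 0.190 (0.0490 to 0.660). Atg3 had 4 and 1 UMIs and 0.0762 (0.0015 to 0.770). Ratios went the other way for Gabarapl1 (1.37), Becn1 (1.22), Atg12 (2.13), Nbr1 (2.44) and Optn (2.44), with intervals that included 1. No direction of the list is drawn from these small counts. Of 7 protease inhibitors, Cst3, the secreted cysteine protease inhibitor cystatin C, was at 47361 and 33140 CPM in RPE-like cells and 4583 and 5528 CPM in monocyte-like cells, with a ratio of 0.70 (0.66 to 0.74) between the libraries.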

How the data were processed

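The deposited values are raw UMI counts per gene and barcode, not filtered for cells, from 2 libraries made with a 10x 3' v2 kit per the labels. The file headers name Cell Ranger 4, the submitters' processing notes Cell Ranger 2.1.1 and mm10; which made the counts is not given in the sources used here. Counts were not divided by gene length. Levels were compared between cells, and where genes are ranked within a class the order is that of their UMIs.

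Barcodes were kept above 10% of the 99th percentile of the top 3000 (1487.4 UMIs in Tsc1 flox, 1373.6 in Tsc1 RPE KO), with at least 200 genes and at most 20% mitochondrial UMIs (0 exceeded it). Doublet calling with scanpy 1.11.5 took out 8 and 19 barcodes, leaving 1524 and 1853 cells with medians of 4525 and 4617 UMIs. Cells were clustered without the member genes (2000 variable genes, 30 components, 20 neighbours, Leiden resolution 1). A cluster was named from at least 3 listed markers seen in at least 10% of its cells at 2-fold or more. RPE-like barcodes with 10 or more leukocyte UMIs were left out; Apoe was dropped from the leukocyte list after seeing that RPE-like cells hold it.

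Intervals (exact Poisson, exact conditional binomial, Clopper-Pearson; SciPy 1.17.1) cover counting error only. No p-values were computed, since each genotype is 1 library. Named were all members and, in other lists, the genes that differed 2-fold or had most RPE UMIs. The members and lists were chosen with earlier results of these data known. Promoters and motifs came from RefSeq (GRCm38.p6), gene positions and overlaps from GENCODE M21. Ratios were tested on simulated data. The result of 1 further hydrolase is not reported here.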

Additional observations from a re-analysis of the deposited data

How the results depend on the processing

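No paired analysis was possible because each genotype is 1 library. Of the summary values under 14 alternatives, 157 kept their direction and size and 31 moved, and 0 reversed; of the values of single genes, 3997 stayed within their counting interval and 106 moved out of it. The 94 values of members past 2-fold in the main setting were read again under each alternative (92 of them with 50 UMIs asked of RPE-like cells alone). Of these 1314 readings, 0 changed direction and 58 moved by over 1.5 times, 21 of them with free RNA subtracted and 18 with barcodes of at least 500 UMIs. A minimum of 20 UMIs, no minimum, the 1.5-fold call and the 50 UMIs in RPE-like cells alone alter no ratio. Single-gene readings could not move under them, and the totals include them. Of 2789 such readings for members not past 2-fold, 103 changed direction, among them Ctsb between the libraries in lymphocyte-like cells (1.26 to 0.294 with free RNA subtracted). That subtraction moved Ctsd in RPE-like against monocyte-like cells of Tsc1 flox from 43.0-fold to 69.6-fold and Ctsc against fibroblast-like cells from 13.4-fold to 40.1-fold, and Ctsb against lymphocyte-like cells from 11.8-fold and 21.0-fold to 28.7-fold and 222-fold. For monocyte- and lymphocyte-like cells the subtracted share of 10% is too high, as their Cd63 levels show. Tpp1 of Tsc1 flox against monocyte-like cells moved from 2.48-fold to 7.02-fold with barcodes of at least 1000 UMIs. The cause of a move was not tested unless the alternative's own construction shows it.

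Members lower in RPE-like than in fibroblast-like cells numbered 1, and 2 with barcodes of at least 1000 UMIs, 3 with at least 500, 2 without ribosomal, mitochondrial and haemoglobin genes, 0 without the 20 most abundant genes, 2 with free RNA subtracted and 3 at 1.5-fold. Members higher in RPE-like cells of Tsc1 RPE KO numbered 2, and 0 with at least 500 UMIs per barcode, 4 at 1.5-fold, 5 with a minimum of 20 UMIs and 9 with none, while 1 was lower at 1.5-fold against 0. In monocyte-like cells, 0 members differed 2-fold between the libraries, but 1 was higher with free RNA subtracted, 1 with a minimum of 20 UMIs, 1 with none and 2 at 1.5-fold, and 1 was lower with barcodes of at least 500 UMIs, 1 at clustering resolution 2 and 2 at 1.5-fold. In fibroblast-like cells the counts of 0 became 1 higher and 1 lower with a minimum of 20 UMIs and with none. In lymphocyte-like cells they became 1 lower with free RNA subtracted, and 1 higher with a minimum of 20 UMIs and with none.

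Asking for 50 UMIs in RPE-like cells alone, chosen after seeing the data, gave 4 higher and 0 lower members against monocyte-like cells (from 7 and 7), 4 and 0 against fibroblast-like cells (from 10 and 1), and 9 and 0 against lymphocyte-like cells (from 19 and 2). Since that minimum keeps members through the RPE-like cells, it favours higher over lower members, and no weight rests on these counts. With 12 and 44 RPE-like cells, depth limits every statement on the 29 members under 50 UMIs there.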
